A study of Bos taurus with 16 samples.

Results

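ALDH1A1, ALDH1A2 and CRABP2 are the genes described here, 3 of the 27607 genes in the deposited tables. They make and bind retinoic acid. Their symbols were taken from the study's own list of genes that differ between the breeds, and each symbol was paired with the Ensembl gene whose chromosome, start and end match. They were thus chosen by their measured expression difference between Lidia and Wagyu, as the study's Cuffdiff comparison gave it, and their breed values below are a description with no test. No further threshold was applied here. All 3 were found and passed the filter for low expression, which was a mean of at least 0.1 FPKM, and all 3 passed it in the Wagyu bulls taken alone. FPKM counts the fragments of a transcript relative to its length and to all fragments mapped in the animal, and so is a level per length.

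RNA from the prefrontal cortex (PFC) of 8 Lidia bulls, a breed selected for aggressive behavior, and 8 Wagyu bulls, a docile beef breed, was sequenced once per animal. All were non-castrated males, 15 of them aged 3 years and Lidia replicate 8 aged 4 years. Lidia replicates 1 to 4 came from the La Quinta farm and replicates 5 to 8 from Montealto, and the Wagyu bulls were reared as a single batch. The same person took the tissue by eye from the right side of the dorsal brain, within an hour of death. The Lidia bulls were incited before the corrida and sampled at the bullring, whereas the Wagyu bulls were sampled at a slaughterhouse, so breed, farm, handling and place of sampling cannot be told apart. The tissue carried the markers of cortex. The 7 neuronal markers with a symbol, among them SLC17A7, GAD2 and NEUROD6, summed to between 297 and 571 FPKM in every animal, and none was at 0.

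Retinoic acid is made from vitamin A in consecutive oxidations, of retinol to retinaldehyde and of retinaldehyde to retinoic acid. The retinaldehyde dehydrogenases ALDH1A1, ALDH1A2 and ALDH1A3 carry out the last step, and the cellular retinoic acid binding proteins CRABP1 and CRABP2 hold the product in the cytosol, CRABP2 passing it on to the nuclear receptors. In the brain, ALDH1A2 is best known from the meninges, the membranes around the cortex, where fibroblasts make retinoic acid during development. Since the tissue was sequenced in bulk, fewer cells of a type and less RNA per cell cannot be told apart in any value below.

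The depth behind the FPKM, estimated at 200 bases per fragment, was 7.67 M to 37.0 M fragments per animal (M, 10 to the power 6). Wagyu replicate 4 (7.67 M) and Lidia replicate 4 (13.7 M) had inflated FPKM, with sums over all genes of 567732 and 439325 against 172575 to 244276 in the other 14 animals. All values were therefore divided by a factor per animal, the median ratio of 15998 genes to their geometric mean over animals, which was 2.21 and 1.78 in these 2 libraries and 0.617 to 1.13 in the others. Values below are this rescaled FPKM, and differences are in log2(rescaled FPKM + 0.1).

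ALDH1A1 (ENSBTAG00000008103) lies on the reverse strand of chromosome 8, from base 49053228 to 49106706 of ARS-UCD 1.2, and was listed with 1 transcript of 13 exons and 2055 exonic bases. Of the 3 genes it was the one whose levels did not overlap between the breeds. Its level was 4.00, 7.44, 10.5 and 15.2 FPKM in La Quinta replicates 1 to 4, the last in the inflated library. In Montealto replicates 5 to 8 it was 9.69, 4.20, 4.57 and 4.61 FPKM. The Wagyu bulls spanned 1.72 to 3.59 FPKM with a median of 2.47. Every Lidia bull lay above every Wagyu bull, a separation that 0.386% of the 16577 tested genes showed in this direction, and nothing is read from it because this contrast chose the gene. The mean was 7.52 ± 4.02 FPKM in Lidia and 2.47 ± 0.629 FPKM in Wagyu (SD, n = 8 each), a ratio of 3.05 between the means. The log2 difference, taken between means of log2 values, was 1.44 (SE 0.26). Without the 2 inflated libraries the log2 difference was 1.28 (SE 0.24). On the FPKM as deposited, 4 of 8 Lidia bulls lay above every Wagyu bull, since Wagyu replicate 4 then stood at 5.49 FPKM.

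ALDH1A1 was also the gene for which the files give a usable error per animal, because it has a single transcript. The 95% intervals that Cufflinks assigned reached 5.46% to 16.3% of the level to either side, and they cover counting and assignment error only. The highest Wagyu bull, replicate 2, had an interval of 3.27 to 3.91 FPKM. That of the lowest Lidia bull, replicate 1, was 3.61 to 4.39 FPKM. The intervals of the nearest animals of the breeds thus overlapped.

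ALDH1A2 (ENSBTAG00000010119), the retinaldehyde dehydrogenase of the meninges, lies on the forward strand of chromosome 10, from base 52214465 to 52340304. Its level was 0.574, 1.52, 3.24 and 4.44 FPKM in La Quinta replicates 1 to 4. In Montealto replicates 5 to 8 it was 3.39, 0.629, 0.584 and 0.871 FPKM. The Wagyu bulls spanned 0.0564 to 1.41 FPKM with a median of 0.108. The groups overlapped through 1 animal, Wagyu replicate 2 at 1.41 FPKM, and the other 7 Wagyu bulls lay below every Lidia bull. The mean was 1.91 ± 1.55 FPKM in Lidia and 0.316 ± 0.459 FPKM in Wagyu (SD, n = 8 each), a log2 difference of 2.34 (SE 0.52). The difference was 1.99 (SE 0.53) without the 2 inflated libraries and 1.03 with a pseudocount of 1 in place of 0.1, as the Wagyu levels are near the pseudocount. Few fragments stood behind them, an estimated 6.39 to 228 per Wagyu bull against 31.4 to 527 per Lidia bull.

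Of the 2 listed ALDH1A2 transcripts, ENSBTAT00000013358, with 13 exons and 4152 exonic bases, held 94.1% of the summed level in Lidia and 88.6% in Wagyu. The other, ENSBTAT00000077432, has 12 exons and 4038 exonic bases. It took nearly the whole level of the gene, at least 99.9%, in 4 animals (Wagyu replicates 1, 5 and 6 and Lidia replicate 6) and 21.1% in Lidia replicate 1. The split between the transcripts so changed from animal to animal within both breeds, and only the sum over transcripts is used here. A short antisense gene, ENSBTAG00000049447, lies inside ALDH1A2 at bases 52323046 to 52323152 and was listed at 0 in all 16 animals.

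CRABP2 (ENSBTAG00000005716), the retinoic acid carrier, lies on the forward strand of chromosome 3, from base 14124443 to 14130828. It varied most within Lidia. Its level was 0.898, 12.2, 15.1 and 12.5 FPKM in La Quinta replicates 1 to 4. In Montealto replicates 5 to 8 it was 24.0, 1.27, 2.44 and 6.18 FPKM. The Wagyu bulls spanned 0.433 to 6.53 FPKM with a median of 0.679. The groups overlapped widely: 4 of 8 Lidia bulls lay above every Wagyu bull, and 5 of 8 Wagyu bulls lay below every Lidia bull. The highest Lidia bull was 26.7 times the lowest, against 3.81 times for ALDH1A1 and 7.73 times for ALDH1A2. The mean was 9.32 ± 8.11 FPKM in Lidia and 2.03 ± 2.34 FPKM in Wagyu (SD, n = 8 each), a log2 difference of 2.13 (SE 0.73), and of 1.83 (SE 0.80) without the 2 inflated libraries. The transcript of 5 exons, ENSBTAT00000007515, held 99.3% of the summed CRABP2 level in Lidia and 98.3% in Wagyu.

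**Figure D1:**
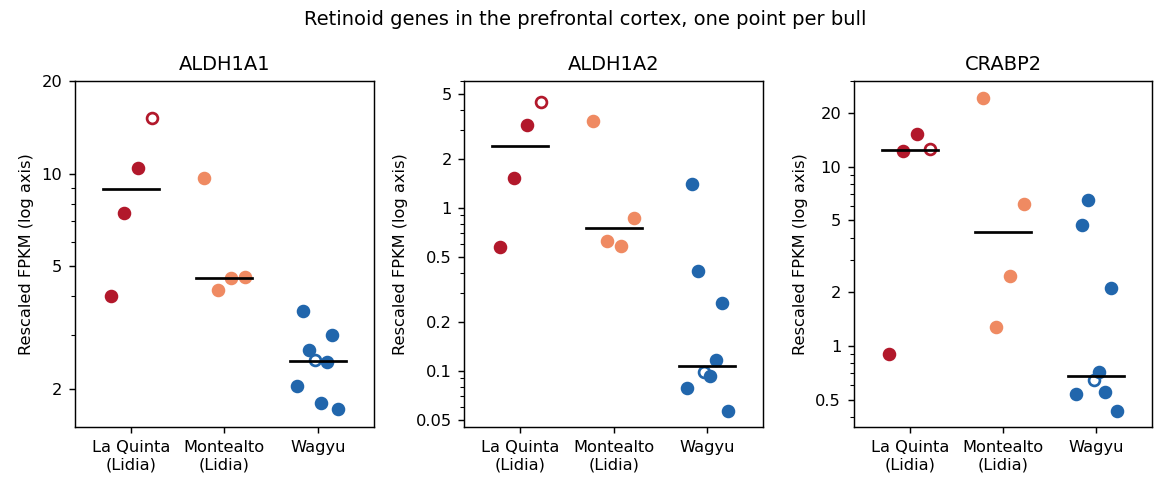
Rescaled FPKM of ALDH1A1, ALDH1A2 and CRABP2 (vertical log axis) in each bull of the La Quinta and Montealto farms (Lidia) and of the Wagyu group. Points are animals, open points the 2 inflated libraries, and lines group medians. The Wagyu points for ALDH1A1 end at 3.59, below the lowest Lidia point at 4.00, while the groups overlap for ALDH1A2 and CRABP2.

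Across all tested genes, 827 of 16577 (4.99%) passed the call rule between the breeds, an adjusted p of at most 0.05 (limma, Benjamini-Hochberg) and an absolute log2 difference of at least 0.1, with 3.33% called higher in Lidia. Among the 3 genes, ALDH1A1 and ALDH1A2 were called higher and CRABP2 was not. Nothing is read from that count, because the same contrast chose the genes. It also moved with the setting: 0 of 3 were called on the FPKM as deposited, where 0 genes were called in all and 1022 had an unadjusted p under 0.05. Without the 2 inflated libraries only ALDH1A1 was called, and without Lidia replicate 1, the Lidia bull lowest in all 3 genes, CRABP2 was called too.

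Each Lidia farm was then set against the same 8 Wagyu bulls, so the paired values share their controls. ALDH1A1 differed by 1.75 on the log2 scale for La Quinta and 1.14 for Montealto (SE 0.30 each). ALDH1A2 differed by 2.75 and 1.93 (SE 0.64 each), and CRABP2 by 2.40 and 1.86 (SE 0.91 each). La Quinta so had the higher estimate in all 3 genes. ALDH1A1 and ALDH1A2 were called for La Quinta, where 0.609% of all genes were called higher, and 0 of 3 for Montealto, where 1.28% were. Nothing is read from these counts either, as each farm is part of the contrast that chose the genes. For La Quinta, 0 of 3 were called on the FPKM as deposited or without the 2 inflated libraries, and ALDH1A1 alone with upper-quartile rescaling, a pseudocount of 1, a mean of at least 1, no filter or no variance trend. With array weights, which give noisier libraries less weight, all 3 were called for La Quinta, and ALDH1A1 and ALDH1A2 for Montealto. The calls also rest on few animals. Of the 3 genes, 0 were called for La Quinta without Lidia replicate 3 or Lidia replicate 4, ALDH1A1 alone without Lidia replicate 2, 7 or 8, and ALDH1A1 was called for Montealto without Lidia replicate 1.

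The contrast between the farms within Lidia played no part in choosing the genes and could be tested. No difference was detected for any of the 3. ALDH1A1 averaged 9.28 ± 4.76 FPKM in La Quinta and 5.77 ± 2.62 in Montealto (SD, n = 4 each), a log2 difference of 0.61 (SE 0.35, limma adjusted p = 0.828 over all 16577 genes). ALDH1A2 averaged 2.44 ± 1.73 and 1.37 ± 1.36 FPKM, a log2 difference of 0.82 (SE 0.74, limma adjusted p = 0.859). CRABP2 averaged 10.2 ± 6.32 and 8.47 ± 10.6 FPKM, a log2 difference of 0.54 (SE 1.05, limma adjusted p = 0.925). Both farms held low and high bulls for every gene. Lidia replicate 5 was the highest Montealto bull in ALDH1A1, ALDH1A2 and CRABP2 alike, and Lidia replicate 1 the lowest La Quinta bull. Without Lidia replicate 6, the CRABP2 difference turned to -0.063 (limma adjusted p = 0.997). Of all genes, 15 (0.0905%) were called between the farms, and 977 (5.89%) had an unadjusted p under 0.05.

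The other genes of the pathway came from a list of 47, of which 12 had a symbol here and all 12 were tested. Symbols were available only for genes that the study listed as differing between the breeds, so the breed values of these genes too are a description with no test. Their log2 differences between the breeds ran from 0.42 to 2.42 with a median of 1.06, and all 12 were positive. Of the 12, 6 were called. Over all genes the median was -0.01 and 4.99% were called, but genes from a list of breed differences cannot be judged against these values. Nothing is therefore read from the direction or the count. The other 35 genes of the list had no symbol here, so their values could not be picked out among the deposited genes. The pathway as a whole is therefore not described. Values for the storage enzymes, the carotene cleaving enzymes and the CYP26 enzymes, which break retinoic acid down, were not analysed here.

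Among uptake proteins and carriers, CRABP1, the other retinoic acid binding protein, stood at 8.80 to 44.6 FPKM in Lidia (median 22.7) and 1.75 to 12.8 FPKM in Wagyu (median 4.21). It had the largest log2 difference of the 12, at 2.42 (SE 0.38). STRA6, the membrane receptor for retinol uptake, had medians of 2.51 and 1.10 FPKM, a log2 difference of 0.89 (SE 0.25). FABP5, a fatty acid binding protein that also carries retinoic acid, was abundant in both breeds, with medians of 28.7 and 20.4 FPKM and the smallest difference, 0.42 (SE 0.12). By median CRABP1 was the more abundant binding protein. CRABP2 made up a median of 24.1% of the sum of both in Lidia (range 6.16% to 43.7%) and 23.7% in Wagyu (9.27% to 53.6%).

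Among the enzymes, AOX1, an aldehyde oxidase that can oxidise retinaldehyde, had medians of 10.6 FPKM in Lidia and 2.04 FPKM in Wagyu, a log2 difference of 2.23 (SE 0.37). CYP1B1, a cytochrome P450 that can form retinoic acid from retinol, was low, with medians of 0.379 and 0.0562 FPKM and a difference of 1.77 (SE 0.40). ALDH1A3 was low too, with medians of 0.491 and 0.119 FPKM and a difference of 1.22 (SE 0.33). Few fragments stood behind CYP1B1, an estimated 0 to 17.2 per Wagyu bull and 3.34 to 107 per Lidia bull. For ALDH1A3 they were 4.89 to 26.5 and 2.72 to 94.5. The Wagyu levels of CYP1B1 and ALDH1A3 are near the pseudocount, and how far their differences depend on it was not tested. RARG, the only receptor with a symbol here, differed by 0.83 (SE 0.14), from medians of 1.62 and 0.784 FPKM. Of the retinoic acid responsive genes, RARRES2 (chemerin) differed by 1.10 (SE 0.26), RARRES1 by 0.74 (SE 0.25) and TGM2, a transglutaminase, by 2.01 (SE 0.57). AOX1, CYP1B1, ALDH1A3, RARG and RARRES2 were called, with CRABP1, and the other 6 were not.

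Between the farms the 12 genes had no common direction. La Quinta was higher for 7 and lower for 5, the median log2 difference was 0.23 against -0.01 over all genes, and 0 were called (smallest limma adjusted p = 0.437). The farms did not overlap for a pair of them. TTR, the carrier of thyroxine and of the retinol binding protein and also a choroid plexus marker, stood at 1.05 to 1.78 FPKM in La Quinta and 7.51 to 18.8 FPKM in Montealto, a log2 difference of -2.92 (SE 0.93, limma adjusted p = 0.696). RGR, an opsin that isomerises retinaldehyde, stood at 3.54 to 7.80 FPKM in La Quinta and 1.75 to 3.25 FPKM in Montealto, a difference of 1.16 (SE 0.31, limma adjusted p = 0.437). Farms that did not overlap were found for 3.6% of all genes.

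**Figure D2:**
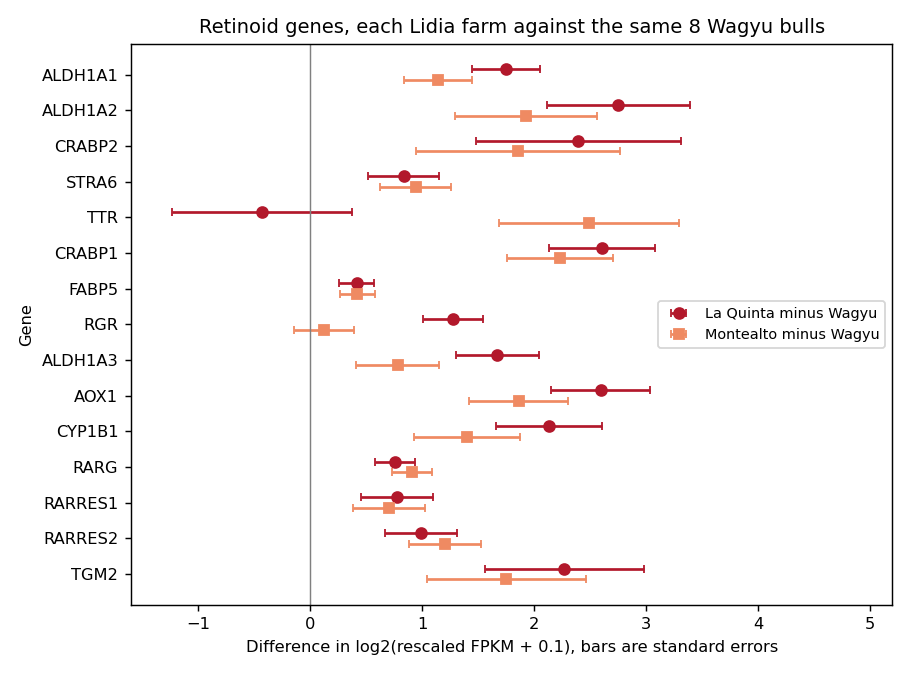
Difference in log2(rescaled FPKM + 0.1) of each Lidia farm from the same 8 Wagyu bulls (horizontal axis) for ALDH1A1, ALDH1A2, CRABP2 and the 12 other retinoid genes (vertical axis). Circles are La Quinta, squares Montealto, and bars standard errors. TTR is the only gene with La Quinta below 0, at -0.43, and for RGR the Montealto value is near 0 while that of La Quinta is 1.28.

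FPKM is a level per length, so the 3 retinaldehyde dehydrogenases could be compared within each animal. ALDH1A1 was the main one in all 16 bulls. It made up a median of 78.3% of their summed level in Lidia (69.5% to 85.7%) and 91.3% in Wagyu (68.6% to 92.7%). ALDH1A2 made up 15.4% in Lidia (10.8% to 24.3%) and 4.54% in Wagyu (3.01% to 27.0%), the highest share of all being that of Wagyu replicate 2. ALDH1A3 held 5.75% and 4.42%. The shares are made of the levels above, which the breed contrast chose, and were not tested.

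**Figure D3:**
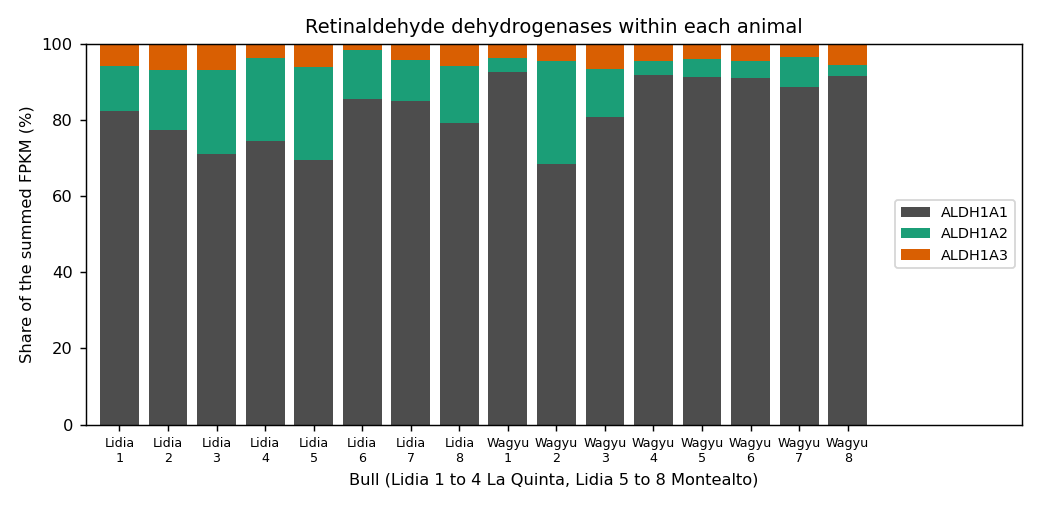
Share of the summed FPKM of ALDH1A1, ALDH1A2 and ALDH1A3 held by each enzyme (vertical axis, percent) in each bull (horizontal axis). Stacked bars add to 100%, and the ALDH1A2 segment is widest in Wagyu replicate 2, at 27.0%.

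How the 3 genes varied among bulls of the same breed was not used to choose them, and it could be tested over the 8 animals of each breed. Pearson's r and Spearman's rho were taken on the log2 scale with exact two-sided permutation tests, and p was adjusted over the 12 relations computed (6 per breed). The 3 genes rose and fell together within Lidia. Over both breeds, with values centred on the breed mean, other genes varied more like each of them than the other members did, as given further below. ALDH1A1 and ALDH1A2 followed each other most closely, with r = 0.98 (p = 0.000298, adjusted p = 0.00159) and rho = 0.95 (p = 0.00114, adjusted p = 0.00456), and r was 0.97 without the 2 bulls farthest from the median of ALDH1A1. ALDH1A1 and CRABP2 had r = 0.84 (p = 0.0161, adjusted p = 0.0193) and rho = 0.90 (p = 0.00456, adjusted p = 0.00685), and 0.92 without the 2 farthest. ALDH1A2 and CRABP2 had r = 0.88 (p = 0.00761, adjusted p = 0.0114) and rho = 0.90 (p = 0.00456, adjusted p = 0.00685), and 0.88 without the 2 farthest. Each farm holds 4 bulls, too few for a value within a farm.

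In Wagyu the same relations were positive. ALDH1A2 and CRABP2 had r = 0.88 (p = 0.00523, adjusted p = 0.00897) and rho = 0.88 (p = 0.00724, adjusted p = 0.00869), and r was 0.95 without the 2 farthest animals. ALDH1A1 and ALDH1A2 had r = 0.86 (p = 0.00149, adjusted p = 0.00357) and rho = 0.93 (p = 0.00223, adjusted p = 0.00536), and r fell to 0.71 (exact permutation p = 0.110) without the 2 farthest. ALDH1A1 and CRABP2 had r = 0.76 (p = 0.0358, adjusted p = 0.0358) and rho = 0.79 (p = 0.0279, adjusted p = 0.0279), and r fell to 0.58 (exact permutation p = 0.261). Only 6 animals over a narrower range are then left, so these values cannot show whether the relations rest on the animals left out. Without one animal at a time, ALDH1A1 with ALDH1A2 kept r = 0.77 to 0.89 (exact permutation adjusted p at most 0.0471). ALDH1A1 with CRABP2 gave 0.65 to 0.87 (exact permutation adjusted p up to 0.127). Whether the relations differ between the breeds was not tested.

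The genes most like each member in their variation within breeds are given as a description, with r over the 16 animals on log2 values centred on the breed mean, all animals sharing their library depth and dissection between genes. They were sought among the 1146 tested genes with a symbol, members excepted, all of them from the study's list of breed differences. For ALDH1A1 they were SLC41A1, a magnesium transporter (0.91), SLC13A3, a dicarboxylate transporter, MDFI, an inhibitor of myogenic factors, the angiopoietin ANGPT4 and the anticoagulant protein S gene PROS1 (0.90 each). For ALDH1A2 they were BMP6, a bone morphogenetic protein, the homeobox gene MSX1 and the collagen binding AEBP1 (0.95 each), followed by COL3A1, a fibrillar collagen chain, and ANGPT4 (0.94 each). For CRABP2 they were the sulfate transporter SLC13A4, the transcription factor OSR1 and desmoplakin, DSP (0.98 each), then ZIC1, a zinc finger transcription factor, and WFIKKN2, a protease inhibitor (0.97 each). COL3A1 and SLC13A4 are in the meningeal marker list described next. For ALDH1A1, 9 of 16577 tested genes had a higher r than ALDH1A2, and 106 a higher r than CRABP2. For ALDH1A2, 34 genes lay above ALDH1A1 and 62 above CRABP2. For CRABP2, 186 lay above ALDH1A1 and 74 above ALDH1A2. Of the 12 other retinoid genes, TGM2 was the most like CRABP2, with r = 0.96 and 10 of 16577 genes above it, and FABP5 the least (-0.04). With ALDH1A1 the 12 ran from -0.11 (FABP5) to 0.84 (ALDH1A3), and with ALDH1A2 from 0.11 (FABP5) to 0.88 (CRABP1).

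Markers of the meninges moved with all 3 genes. Of 23 markers of meningeal fibroblasts and the arachnoid barrier, none of them a member, 17 had a symbol here, and none of these was at 0 in any animal. Their summed level was 27.2 to 157 FPKM in Lidia (median 58.6) and 9.05 to 47.9 FPKM in Wagyu (median 13.6), 17 of 17 had a positive log2 difference and 7 were called higher in Lidia. Over all genes 3.33% were called higher. These symbols too came from the list of breed differences, so nothing is read from the direction or the count of the markers. DCN, the matrix proteoglycan decorin, stood at 5.74 to 21.8 FPKM in Lidia and 1.63 to 8.05 FPKM in Wagyu. By farm the sums were 27.2 to 114.5 FPKM in La Quinta and 28.3 to 157 FPKM in Montealto.

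Within each breed the members were set against a meningeal score, the mean log2(rescaled FPKM + 0.1) of the 17 markers. In Lidia, CRABP2 had r = 0.97 with the score (p = 7.44e-05, adjusted p = 0.000893) and rho = 0.98 (p = 0.000397, adjusted p = 0.00456). ALDH1A2 had r = 0.94 (p = 0.00332, adjusted p = 0.00665) and rho = 0.86 (p = 0.0107, adjusted p = 0.0117). ALDH1A1 had r = 0.89 (p = 0.0107, adjusted p = 0.0143) and rho = 0.88 (p = 0.00724, adjusted p = 0.00869). Without the 2 bulls farthest from the median score the values were 0.95, 0.93 and 0.90. The scores were -0.09 to 0.77 in Lidia replicates 1, 6, 7 and 8 and 1.80 to 2.66 in replicates 2 to 5. Both sets remain without the farthest bulls, so these values cannot show whether the relations rest on that split. The relations within either set were not tested.

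In Wagyu, CRABP2 had r = 0.96 with the score (p = 0.000397, adjusted p = 0.00159) and rho = 0.93 (p = 0.00223, adjusted p = 0.00536). ALDH1A2 had r = 0.90 (p = 0.00136, adjusted p = 0.00357) and rho = 0.95 (p = 0.00114, adjusted p = 0.00456). ALDH1A1 had r = 0.75 (p = 0.0358, adjusted p = 0.0358) and rho = 0.90 (p = 0.00456, adjusted p = 0.00685). Without the 2 farthest animals they were 0.84, 0.86 and 0.88. For ALDH1A1, leaving out a single Wagyu bull (replicate 1, 2, 4, 5 or 8) took the adjusted p above 0.05, with the lowest r, 0.57, without replicate 2 (exact permutation adjusted p = 0.163).

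The score ran from -1.15 to 0.87 in Wagyu and from -0.09 to 2.66 in Lidia, so the breeds overlapped in it. Wagyu replicates 2 and 3 had scores of 0.83 and 0.87, above those of Lidia replicates 1, 6, 7 and 8 (0.00, -0.09, 0.38 and 0.77). In CRABP2, Wagyu replicates 2 and 3 stood at 4.73 and 6.53 FPKM, among or above the 0.898, 1.27, 2.44 and 6.18 FPKM of these 4 Lidia bulls. In ALDH1A2 they stood at 1.41 and 0.412 FPKM, on either side of the 0.574, 0.629, 0.584 and 0.871 FPKM of the Lidia bulls. In ALDH1A1 both, at 3.59 and 2.68 FPKM, lay below all 4 Lidia bulls, which stood at 4.00 to 4.61 FPKM. That order was given beforehand, since in ALDH1A1 every Wagyu bull lay below every Lidia bull whatever its score, and nothing is read from it. These bulls were picked by their scores and their values are a description. The part of the markers in the breed values was not tested for any of the 3 genes.

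**Figure D4:**
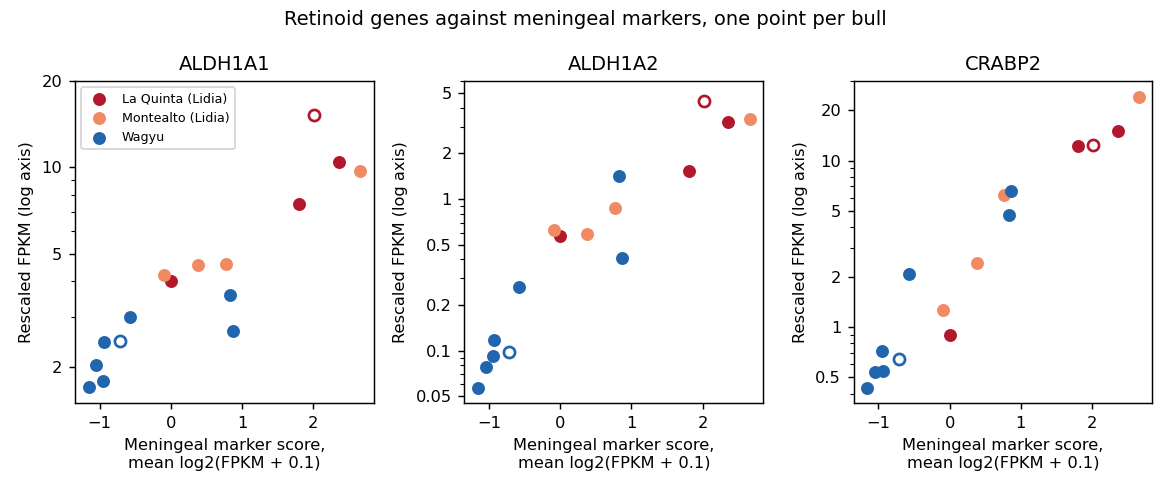
Rescaled FPKM of ALDH1A1, ALDH1A2 and CRABP2 (vertical log axis) against the meningeal marker score (horizontal axis, mean log2(FPKM + 0.1) of 17 markers), one point per bull, open points for the 2 inflated libraries. Wagyu replicates 2 and 3, at scores of 0.83 and 0.87, sit with the Lidia points in CRABP2. In ALDH1A1 all Wagyu points lie below all Lidia points, whatever the score.

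Markers of other cell types were called between the breeds too, and their part in the values of the 3 genes was not tested. Their symbols also came from the list of breed differences. Nothing is therefore read from the counts called, against 4.99% of all genes, and whether the breeds differ in cell types was not tested. The summed level of 7 of 10 endothelial markers was 36.6 to 127 FPKM in Lidia and 19.1 to 45.5 FPKM in Wagyu (4 called higher). That of 3 of 7 mural markers was 11.1 to 32.4 and 5.52 to 26.0 FPKM (2 called), and that of 7 of 11 astrocyte markers 546 to 845 and 375 to 791 FPKM (3 called). The 10 of 14 oligodendrocyte markers summed to 144 to 443 and 101 to 295 FPKM (2 called), and the 5 of 8 microglial markers to 29.7 to 51.2 and 14.4 to 35.3 FPKM (2 called). The 7 of 11 neuronal markers summed to 297 to 437 FPKM in Lidia and 342 to 571 FPKM in Wagyu, with 1 called lower in Lidia. Choroid plexus was represented by TTR alone, at 1.05 to 18.8 and 0.154 to 9.37 FPKM. None of the markers with a symbol was at 0 in any animal. Genes of the mitochondrial genome held 22.2% to 38.4% of the summed FPKM in Lidia and 17.8% to 39.3% in Wagyu.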

How the data were processed

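Per the labels, RNA was extracted with an RNeasy lipid kit and sequenced from TruSeq stranded mRNA libraries. The authors trimmed the reads, mapped them with STAR (2.7.3a) to ARS-UCD 1.2 and estimated transcript abundance with Cufflinks (2.2.1). The deposited values are FPKM of 43984 transcripts of 27607 genes per animal, normalized within each animal only, and precede the authors' Cuffdiff comparison. The strand setting is not given in the sources used here.

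FPKM were summed per gene and divided by median-of-ratios factors. For the 16577 genes whose mean reached 0.1, log2(FPKM + 0.1) was fitted on all 16 animals, by breed or by farm and Wagyu, using limma (version 3.58.1, R 4.3.3) with the trend option of eBayes. Its two-sided p was adjusted by Benjamini-Hochberg over all tested genes. The fit was tested on simulated data. Farm is nested in breed, so it is no covariate, and farms came from the study's sample sheet. Correlations, on n = 8, used exact two-sided permutation in Python 3.11.15 with scipy 1.17.1. Of 1193 symbols in the study's list, 34 were not paired, and 1153 distinct symbols were paired with a gene. Without read counts, no counting error could be given for most values, so errors are the spread over animals, each sequenced once.

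The genes named are the 3 members, the genes with a symbol of a retinoid list of 47, the 5 genes most like each member, and markers where a result turns on them. The members and lists were chosen with earlier results of these data known. The reference table used here is of another build and gave no coordinates, and no sequence was used. Alternatives were the FPKM as deposited, upper-quartile rescaling, pseudocounts of 1 and 0.01, a mean of at least 1, no filter, no variance trend, array weights, leaving out each animal or the 2 inflated libraries, the Lidia bulls alone for the farms, and Spearman's rho.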

Additional observations from a re-analysis of the deposited data

Results flagged for a closer look

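The highest and the lowest bull were compared with the rest by Dixon's rule, for all 15 retinoid genes in the 8 Lidia bulls, the 8 Wagyu bulls and the 4 bulls of each Lidia farm. Of 60 groups checked, 8 held a bull that stood apart. By chance the rule flags about 1 in 20 groups when values are normal and groups independent. Here the rule was applied to rescaled FPKM without logarithm, the Lidia group holds both farms, and genes covary. The count is therefore not judged against that rate. Lidia replicate 5 stood apart among the Montealto bulls in ALDH1A1, at 9.69 FPKM with the next at 4.61, in ALDH1A2, at 3.39 FPKM with the next at 0.871, and in CYP1B1, at 1.26 FPKM with the next at 0.253. It also stood apart among the Lidia bulls in STRA6, at 5.001 FPKM with the next at 2.92. Its meningeal score was the highest of all animals, at 2.66. Wagyu replicate 2 stood apart among the Wagyu bulls in ALDH1A2, at 1.41 FPKM with the next at 0.412, in CRABP1, at 12.8 FPKM with the next at 5.67, and in RGR, at 4.58 FPKM with the next at 2.95. Its meningeal score of 0.83 was second to that of Wagyu replicate 3. Lidia replicate 6 stood apart among the Lidia bulls in RARRES2, at 31.2 FPKM with the next at 17.8. Its meningeal score, -0.09, was the lowest of the Lidia bulls. Whether standing apart goes with the score was not tested.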

How the results depend on the processing

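No paired analysis was possible because the breeds are made up of different animals, whose replicate numbers only name them and are not in the labels. Without one animal at a time, the log2 difference between the breeds was 1.28 to 1.55 for ALDH1A1, 2.10 to 2.67 for ALDH1A2 and 1.83 to 2.49 for CRABP2. A pseudocount of 1 gave 1.03 for ALDH1A2. The genes called between the breeds, 827 with 552 higher in Lidia, were 0 on the FPKM as deposited (1022 at an unadjusted p under 0.05, limma), 3088 with array weights, 239 without the 2 inflated libraries and 364 to 1425 without one animal, with 1425 without Wagyu replicate 2, 364 without Wagyu replicate 8, and 409 to 474 without Wagyu replicate 4, 5, 6 or 7 or Lidia replicate 2, 3, 4 or 5. The 15 genes called between the farms were 6 as deposited, 8 at a mean of at least 1, 54 with array weights, 8 without the inflated libraries, 7 in the Lidia bulls alone and 6 to 13 without one bull (6 without Lidia replicate 1, 7 without 2 or 4, 9 without 3). Between the farms, ALDH1A1 ran from 0.32 to 0.95, ALDH1A2 from 0.43 to 1.36 and CRABP2 from -0.063, without Lidia replicate 6, to 1.47, and none of the 3 was called in any setting. All 6 Lidia relations held in every setting. In Wagyu, ALDH1A1 with ALDH1A2 gave r = 0.63 as deposited (exact permutation adjusted p = 0.102) and 0.71 without the 2 farthest animals (0.120). ALDH1A1 with CRABP2 gave 0.57 as deposited (exact permutation adjusted p = 0.142), 0.58 without the 2 farthest (0.261), and 0.65 to 0.87 without one animal, with an adjusted p above 0.05 without Wagyu replicate 1, 2, 5, 7 or 8. ALDH1A1 with the meningeal score gave 0.76 without the inflated libraries (exact permutation adjusted p = 0.0512), and 0.57 to 0.84 without one animal. The cause of these changes was not tested.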
